A study of Rattus norvegicus with 18 samples.

Results

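Rat pXEN cells, listed in the labels as rat XENP, are extraembryonic endoderm precursors, here of the WKY strain and labelled female. A pair of culture forms of these cells were compared, and together they hold 6 of the 18 libraries of the study. The 3 serum vesicle libraries came from cells grown as vesicles with the GSK3 inhibitor CHIR99021 and serum, at passages 32, 35 and 49. The 3 libraries of unsorted CHIR99021-vacuolated cells, here called vacuolated cells, came from routine medium with 0.5 µM CHIR99021, at passages 37, 41 and 51. The growth protocol gives 3 µM CHIR99021 and 10 ng/ml murine LIF in N2B27 medium for vesicles without saying whether this holds for those with serum. The dose, the medium and the culture form may therefore all differ between the groups and cannot be told apart. All libraries were strand-specific and made from total RNA after removal of ribosomal RNA, and within a group each replicate has its own passage number. The labels do not say that replicates came from separate derivations, so every p below measures the spread between these samples, which may be technical. Values after ± are SDs over 3 libraries unless said otherwise.

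As background, primitive endoderm of the blastocyst gives rise to visceral endoderm, an absorptive epithelium around the embryo, and to parietal endoderm, loosely attached cells that lay down Reichert's membrane. Precursor lines from the rat are known to keep the pluripotency factor Oct4 (gene Pou5f1) beside endoderm factors such as Gata4, Gata6 and Sox17. GSK3 marks beta-catenin for destruction, so that its inhibitor CHIR99021 lets beta-catenin act with TCF and LEF factors on Wnt target genes.

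The libraries of serum vesicles held 4.05 M to 8.69 M counts and those of vacuolated cells 6.05 M to 7.73 M. A pair of unnamed genes took 51.0 to 60.8% of them in serum vesicles and 44.3 to 52.2% in vacuolated cells, so that 1.92 M to 3.4 M counts in serum vesicles and 3.02 M to 3.75 M in vacuolated cells fell on the rest. Genes with an Mt- symbol took 7.91 to 9.31% of the remaining counts in serum vesicles and 2.88 to 4.08% in vacuolated cells. Levels below are CPM (counts scaled to a common library total) scaled by TMM, so they compare a gene between libraries but not 2 genes of unlike length. The part of depth and of mitochondrial RNA in the results was not tested, other than in the fits listed with the processing.

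The labelled cell type was checked against its markers. Gata4 (146, 181 and 138 CPM in serum vesicles, against 275, 255 and 298 CPM in vacuolated cells) and Sox17 (272, 366 and 254 CPM in serum vesicles, against 674, 555 and 586 CPM in vacuolated cells) were present in all 6 libraries, both lower in every vesicle library than in any vacuolated one. The visceral endoderm secretory genes Afp and Apoa1 had 13 and 11 counts in serum vesicles and 0 in vacuolated cells, and Ttr had 0 in both, so none of these could be tested. Nanog and Sox2 had 2 and 1 counts in serum vesicles and 0 in vacuolated cells. Blood and immune genes, with 12 list members in the files, summed to 1.15 to 3.80 CPM in serum vesicles and 4.63 to 4.83 CPM in vacuolated cells, with Ptprc and Hbb at 0. Fibroblast genes, also 12 members, summed to 3.50 to 16.4 CPM in serum vesicles and 1.78 to 7.07 CPM in vacuolated cells, with Dcn and Lum at 0 in both. These are bulk cultures, in which fewer cells of a type and less RNA per cell cannot be told apart.

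Serum vesicles differed from vacuolated cells in 6666 of 11503 tested genes, or 58.0%, at an adjusted p under 0.05 in edgeR's quasi-likelihood test. Of these, 3489 were higher (30.3% of those tested) and 3177 lower (27.6%). The higher side reached further: 2189 genes were over 2-fold higher and 1476 over 2-fold lower, together 31.9% of those tested, and 234 against 47 were over 16-fold. The 3 vesicle libraries did not overlap the 3 vacuolated ones for 7205 genes, or 62.6%. The median log2 fold change of all tested genes was 0.05, so a list's median is set beside that value. With so many calls, a single called gene is common here, and each list's count is read beside these shares.

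The imprinted locus of Igf2 and H19 held 2 of the 12 highest folds among called genes with a mean log2 CPM of 3 or more over the 6 libraries and groups that did not overlap. Igf2, an embryonic growth factor, had 164, 282 and 126 CPM in serum vesicles, against 1.96, 1.03 and 0.957 CPM in vacuolated cells, 142-fold higher (log2 fold change 7.15 ± 0.69 SE, adjusted p = 1.52e-06). It was the highest fold among those genes. Slc9a3 and Cdx2, under that mean, had higher ones and are given with the transport genes and the visceral endoderm markers. For Igf2, normal cells stood at 0.538 to 1.15 CPM. Mir675, a microRNA gene inside H19, had 172, 165 and 220.4 CPM in serum vesicles, against 6.31, 4.66 and 5.47 CPM in vacuolated cells, 33.5-fold higher (adjusted p = 2.20e-15). Libraries of fragmented total RNA do not separate mature microRNA from its host transcript, so these counts are of RNA across the gene, not of the mature forms. The mature sequences, taken from RefSeq on GRCr8, are shown because Mir675 stands for this locus beside Igf2 in the counts, with the seed (bases 2 to 8) in capitals.
rno-miR-675-5p (GRCr8 chr1:207161800-207161821, minus strand): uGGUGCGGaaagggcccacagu
rno-miR-675-3p (GRCr8 chr1:207161766-207161786, minus strand): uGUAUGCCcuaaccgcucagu
The seeds of the 2 arms differ, so the arms fall into separate seed groups.

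**Figure D1:**
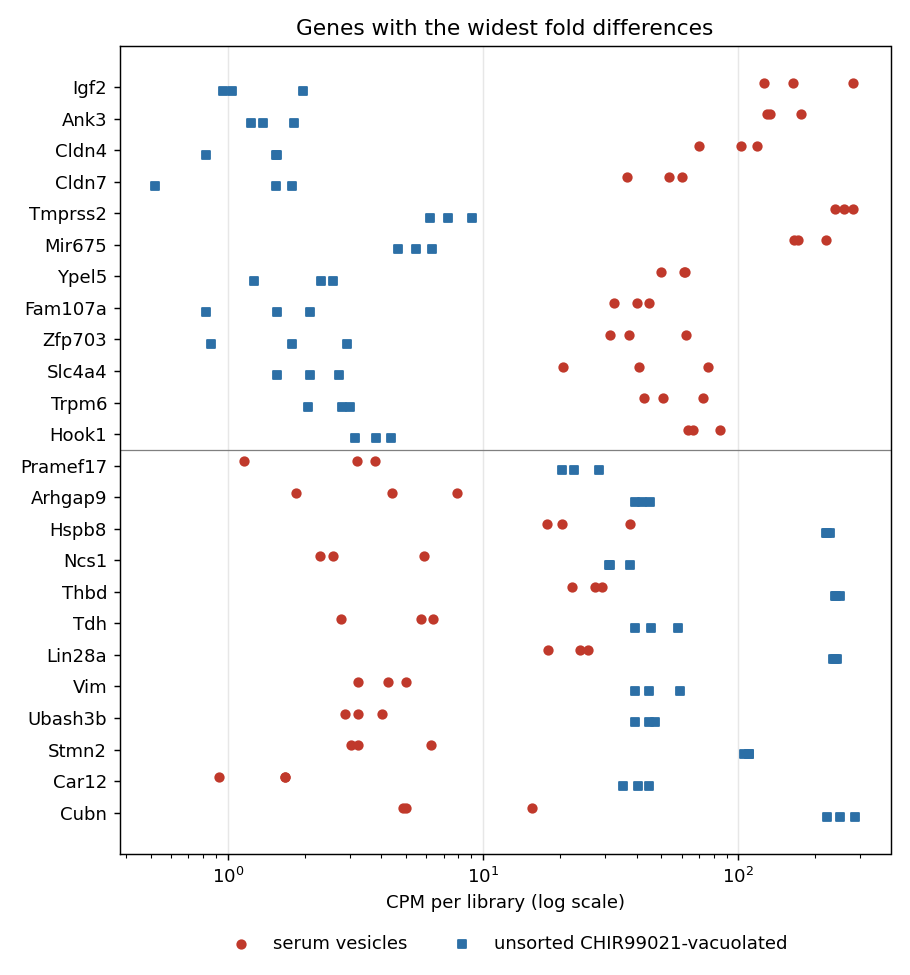
CPM per library on a log axis for the 12 genes with the highest and the 12 with the lowest fold among called genes with a mean log2 CPM of 3 or more whose groups did not overlap, with serum vesicles as circles above unsorted CHIR99021-vacuolated cells as squares. The gap between the groups in every row is how the genes were picked, and Igf2, with the highest fold, lies at 126 to 282 CPM in serum vesicles and 0.957 to 1.96 CPM in vacuolated cells.

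The other 10 of the highest folds are in the plot of the widest differences. Ank3, the membrane scaffold ankyrin-G, had 129.9, 133 and 177 CPM in serum vesicles, against 1.82, 1.38 and 1.23 CPM in vacuolated cells (97.5-fold higher). The tight junction proteins Cldn4 and Cldn7 were 74.4-fold and 37.2-fold higher, and Tmprss2, a serine protease anchored in the membrane, 34.3-fold (259.7 ± 20.7 CPM in serum vesicles, against 7.51 ± 1.42 CPM in vacuolated cells). Slc4a4, a sodium bicarbonate cotransporter, rose 20.8-fold, Trpm6, a magnesium channel of absorptive epithelia, 20.6-fold, and Hook1, a microtubule-linked trafficking adaptor, 18.996-fold. Zfp703, a zinc-finger repressor, rose 22.5-fold, and Ypel5 and Fam107a 28.1-fold and 26.1-fold. None of these 10 lost its call when any 1 of the 6 libraries was left out.

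The 12 lowest folds, picked by the same rule, were of genes of mixed function. Genes that did not meet that rule could fall further, as Fgf10, Tfec and Pou5f1 did, which are given below. Cubn, the visceral endoderm receptor cubilin, had 15.5, 5.01 and 4.84 CPM in serum vesicles, against 223, 251 and 288 CPM in vacuolated cells, 29.3-fold lower (adjusted p = 4.24e-08). Vesicle replicate 1 held more Cubn than the other 2, and without it the log2 fold change was -5.69 against -4.87 with it. Car12, a carbonic anhydrase, fell 26.8-fold, and Stmn2, a neuronal microtubule regulator, 25.1-fold (3.04, 6.26 and 3.23 CPM in serum vesicles, against 110.5, 110.2 and 106 CPM in vacuolated cells). Lin28a, an RNA-binding protein that blocks let-7 maturation, fell 10.5-fold (22.6 ± 4.07 CPM in serum vesicles, against 239 ± 4.36 CPM in vacuolated cells). Thbd, the anticoagulant receptor thrombomodulin of parietal endoderm, fell 9.17-fold (27.5, 29.2 and 22.4 CPM in serum vesicles, against 241, 239 and 251 CPM in vacuolated cells). The intermediate filament gene Vim fell 11.1-fold, the small heat shock protein Hspb8 8.74-fold, the threonine dehydrogenase Tdh 9.21-fold and the phosphatase Ubash3b 12.7-fold. Ncs1, Arhgap9 and Pramef17 fell 8.93-fold, 8.34-fold and 8.25-fold, and without vesicle replicate 2 the log2 fold changes of Ncs1 and Arhgap9 were -3.76 and -3.66, against -3.16 and -3.06.

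Called genes were also ranked by the difference in CPM, again passing over those with placeholder or clone-style symbols. Among the genes so ranked, the 5 widest gains were all mitochondrially encoded, and the 5 widest losses were of mixed function. Mt-co1 averaged 11441 ± 458 CPM in serum vesicles, against 7957 ± 1407 CPM in vacuolated cells, and Mt-co3, Mt-nd2, Mt-cyb and Mt-nd5 were next in added CPM, with Mt-co3 at 4381 ± 444 CPM in serum vesicles, against 1591 ± 238 CPM in vacuolated cells. The call of Mt-co1 ended without vacuolated replicate 3 (adjusted p = 0.0581). The collagen chaperone Serpinh1 averaged 442 ± 62.8 CPM in serum vesicles, against 1587 ± 119.9 CPM in vacuolated cells, the tubulin Tubb5 581 ± 99.1 CPM in serum vesicles, against 1609 ± 94.8 CPM in vacuolated cells, and the lactate dehydrogenase Ldha 405 ± 126 CPM in serum vesicles, against 1359 ± 3.57 CPM in vacuolated cells. Sparc, a matrix glycoprotein abundant in parietal endoderm, averaged 565 ± 66.002 CPM in serum vesicles, against 1423 ± 69.8 CPM in vacuolated cells. Rpph1, the RNA of ribonuclease P, fell 1.62-fold (8435 ± 2505 CPM in serum vesicles, against 13694 ± 1464 CPM in vacuolated cells), and this call ended without vesicle replicate 3 (adjusted p = 0.0584).

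Among endoderm transcription factors, some rose and others fell in equal number. Of 16 tested, 7 were higher and 7 lower, a larger called share than the 58.0% of all genes but with a median log2 fold change of 0.20. Gata2 had 74.7, 92.5 and 82.5 CPM in serum vesicles, against 11.9, 9.31 and 12.7 CPM in vacuolated cells, 7.32-fold higher, and normal cells had 0.303 to 0.576 CPM. Hnf4a, a regulator of visceral endoderm and of absorptive and hepatic epithelium, rose 4.43-fold (44.9, 43.8 and 34.1 CPM in serum vesicles, against 12.3, 5.86 and 9.29 CPM in vacuolated cells). Foxa2, a pioneer factor of endoderm, rose 1.73-fold and Foxq1, another forkhead factor, 3.65-fold. Gata6 fell 3.52-fold (13.1, 17.4 and 10.8 CPM in serum vesicles, against 46.3, 50.4 and 51.1 CPM in vacuolated cells), Gata4 1.78-fold and Sox17 2.03-fold. Tfec, a factor of the MiT/TFE family, fell 30.5-fold (0.857 CPM in serum vesicles and 26.03 CPM in vacuolated cells), with a log2 fold change of -5.58 without vesicle replicate 1 against -4.93 with it. Sox7 fell 1.65-fold (adjusted p = 0.0382), but this call ended without vesicle replicate 2 (adjusted p = 0.199) or any 1 vacuolated library (adjusted p = 0.0631 to 0.0778). It also ended in DESeq2 (adjusted p = 0.0581), with total counts, with passage as a covariate and in several other fits. Pdgfra, the PDGF receptor of primitive endoderm, was at 244 ± 36.9 CPM in serum vesicles, against 254 ± 36.4 CPM in vacuolated cells and did not pass (adjusted p = 0.769).

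Pluripotency-associated genes were lower in serum vesicles. Of 13 tested, 9 were lower and 1 higher, beside 27.6% and 30.3% of all genes, with a median log2 fold change of -1.45. Pou5f1 had 1.52, 1.53 and 0.692 CPM in serum vesicles, against 37.3, 33.3 and 48.8 CPM in vacuolated cells, 29.9-fold lower (log2 fold change -4.90 ± 0.30 SE, adjusted p = 9.39e-12). Normal cells carried 102 to 133 CPM of it, so the vacuolated libraries lay between the other groups. The DNA methyltransferase cofactor Dnmt3l fell 27.1-fold (0.739 CPM in serum vesicles and 22.8 CPM in vacuolated cells) and the de novo methyltransferase Dnmt3b 7.32-fold (3.96, 4.17 and 5.53 CPM in serum vesicles, against 27.5, 33.3 and 37.6 CPM in vacuolated cells). Without vesicle replicate 1 the log2 fold change of Dnmt3l was -5.68 against -4.76 with it. Among the 13 tested genes for writing and erasing DNA methylation, the maintenance enzyme Dnmt1 (70.5 CPM in serum vesicles and 60.6 CPM in vacuolated cells) did not pass, and Tet3, which oxidises methylcytosine, rose 2.44-fold. The Krüppel-like factor Klf4 was the 1 member that rose, 1.904-fold (69.4, 86.97 and 70.8 CPM in serum vesicles, against 35.5, 40.4 and 43.6 CPM in vacuolated cells).

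Markers of visceral endoderm moved both ways. Of 15 tested, 9 were higher and 3 lower (median log2 fold change 1.04). Cdx2, a homeobox factor of trophectoderm and hindgut, had 31.6, 21.6 and 21.7 CPM in serum vesicles, against 0.1402, 0.172 and 0 CPM in vacuolated cells, with 457 counts in serum vesicles and 2 in vacuolated cells, a ratio of 256 (95% counting interval 70.4 to 2120). Such intervals cover counting error only. The microvillus protein gene Vil1 had 21.3, 11.1 and 7.38 CPM in serum vesicles, against 0, 0.172 and 0.137 CPM in vacuolated cells and 252 counts in serum vesicles and 2 in vacuolated cells, a ratio of 141 (95% counting interval 38.6 to 1170). Lrp2, the receptor megalin, rose 4.33-fold (509.6 ± 205 CPM in serum vesicles, against 117 ± 13.7 CPM in vacuolated cells), while its partners fell: Cubn as given above, Amn, which brings cubilin to the surface, 4.31-fold, and Dab2, an endocytic adaptor, 5.403-fold. Dab2 had 83.5, 23.2 and 19.8 CPM in serum vesicles, against 227, 271 and 196 CPM in vacuolated cells. Vesicle replicate 1 lay apart there, and without it the log2 fold change was -3.42 against -2.43 with it. Apoe, an apolipoprotein made throughout extraembryonic endoderm, rose 1.55-fold from an already high level (1928 ± 349 CPM in serum vesicles, against 1246 ± 60.1 CPM in vacuolated cells).

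Markers of parietal endoderm were lower more often than higher. Of 18 tested, 4 were higher and 8 lower (median -0.25). Beside Thbd and Sparc, the retinol receptor Stra6 fell 5.85-fold and the laminin chains Lama1 and Lamb1 1.599-fold and 1.61-fold. The plasminogen activator Plat rose 3.82-fold (61.3, 35.9 and 61.5 CPM in serum vesicles, against 14.3, 13.1 and 13.9 CPM in vacuolated cells) and the transcriptional cofactor Cited1 8.98-fold. Col4a1, a chain of type IV collagen, was at 1099.6 ± 178 CPM in serum vesicles, against 1239 ± 191 CPM in vacuolated cells and did not pass (adjusted p = 0.410).

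Tight junction and polarity genes rose together in serum vesicles. Of 34 tested members, 29 were higher and 0 lower, beside 30.3% and 27.6% of all genes, with a median log2 fold change of 1.43 against 0.05 for all. A claudin that vacuolated cells did not show appeared: Cldn3 had 8.52, 12.2 and 15.4 CPM in serum vesicles, against 0, 0 and 0 CPM in vacuolated cells, at least 78.7-fold higher when the vacuolated group is given 3 counts as its upper limit. Cldn4, a claudin linked to low sodium permeability, had 118, 70.3 and 103 CPM in serum vesicles, against 1.54, 1.55 and 0.82002 CPM in vacuolated cells (log2 fold change 6.22 ± 0.35 SE, adjusted p = 2.31e-11). Cldn7 had 53.4, 36.6 and 60.2 CPM in serum vesicles, against 1.54, 0.517 and 1.78 CPM in vacuolated cells, and Cldn23 23.6, 20.04 and 23.7 CPM in serum vesicles, against 0.421, 0.345 and 0.273 CPM in vacuolated cells. For these 4 claudins the vacuolated libraries lay at or near 0 and the vesicle libraries well above. Cldn6, already present in vacuolated cells, rose 2.59-fold (216, 171 and 161 CPM in serum vesicles, against 70.8, 69.2 and 72.03 CPM in vacuolated cells), and Cldn12 (45.7 CPM in serum vesicles and 36.7 CPM in vacuolated cells) did not pass (adjusted p = 0.0579), although it did without vesicle replicate 2 (adjusted p = 0.0257).

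**Figure D2:**
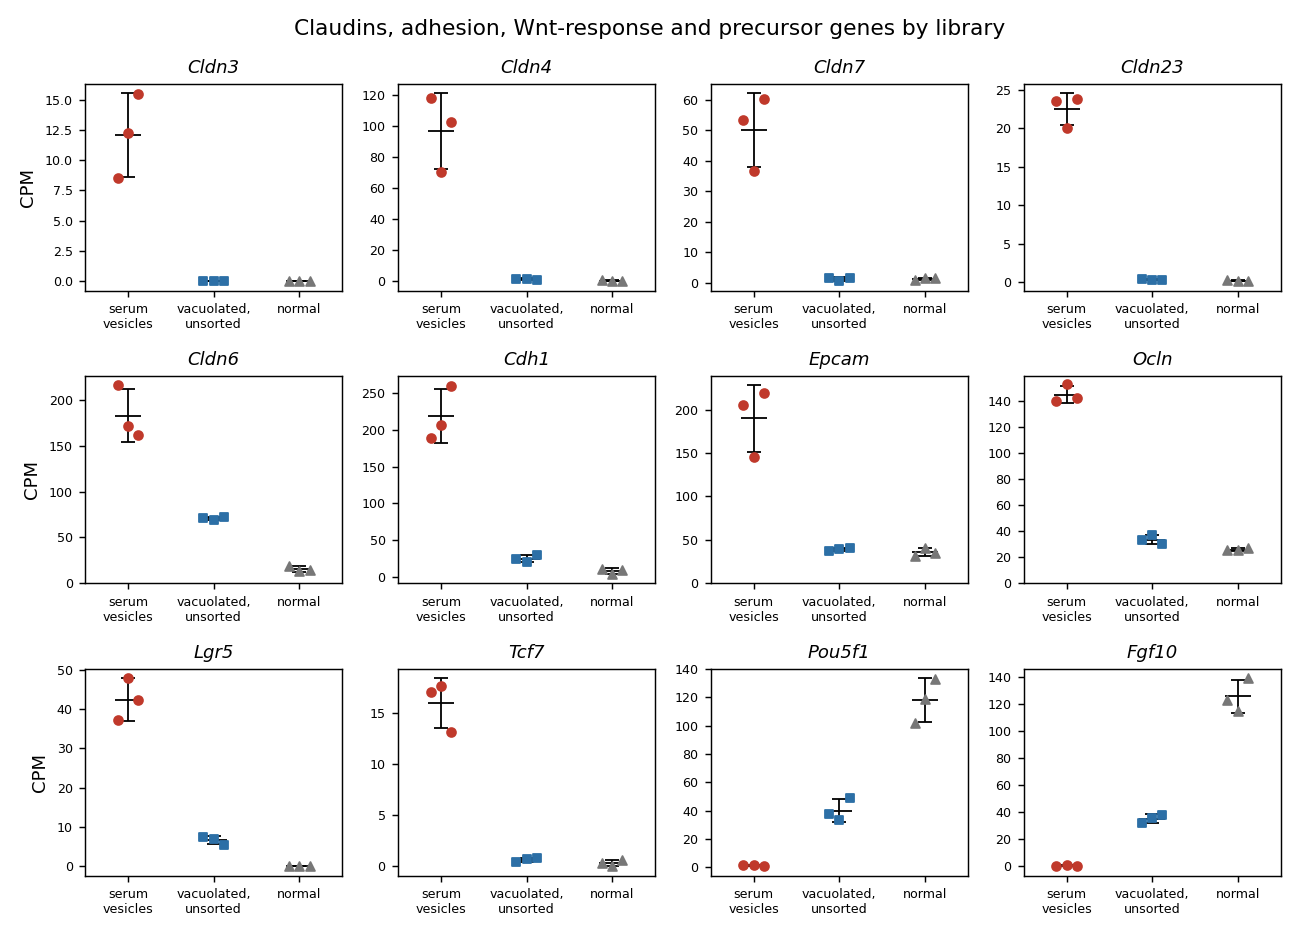
CPM of 12 genes in each library of serum vesicles (circles), unsorted CHIR99021-vacuolated cells (squares) and, for scale, normal cells (triangles), with bars for the mean and SD of 3 libraries. The 4 claudins Cldn3, Cldn4, Cldn7 and Cldn23 are near 0 in the vacuolated and normal cells drawn, while Pou5f1 and Fgf10 are highest in normal cells and near 0 in serum vesicles.

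Adhesion proteins and their regulators rose with the claudins. Cdh1, the adhesion molecule E-cadherin, had 189.7, 206 and 260.5 CPM in serum vesicles, against 24.4, 20.7 and 29.2 CPM in vacuolated cells, 8.78-fold higher, and Epcam rose 4.84-fold (205, 146 and 219 CPM in serum vesicles, against 37.3, 39.8 and 40.3 CPM in vacuolated cells). The strand proteins Ocln and Marveld2 rose 4.32-fold and 2.82-fold, and the plaque proteins Cgn, Tjp3 and Tjp1 3.97-fold, 8.53-fold and 2.56-fold. Crb3, which sets the apical domain, rose 5.94-fold and the atypical protein kinase C gene Prkci 2.33-fold. Grhl2, a transcription factor known to drive epithelial junction genes, rose 6.28-fold (15.5, 12.7 and 19.4 CPM in serum vesicles, against 2.38, 3.28 and 1.91 CPM in vacuolated cells), and the splicing factor Esrp2 3.38-fold. The surface proteases Prss8 and St14, which act in one cascade, rose 8.67-fold and 3.39-fold, and their inhibitor Spint1 2.23-fold. Ovol2 and Pard6b were among the 5 that did not pass.

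Genes of desmosomes and of keratins were higher more often than lower. Of 12 tested, 8 were higher and 2 lower (median 0.77). The plakin genes Ppl and Dsp rose 23.4-fold and 5.05-fold, and the desmosomal cadherin Dsc2 2.58-fold. Krt8 and Krt18, the simple-epithelium keratins, rose 1.497-fold and 1.63-fold, and Krt19 (70.5 CPM in serum vesicles and 79.7 CPM in vacuolated cells) did not pass. The plakophilins Pkp3 and Pkp4 fell 1.45-fold and 1.78-fold.

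Genes of the microvillus and of ion and water transport were higher more often than lower. In the brush border list 13 of 19 were higher and 1 lower (median 1.56). The actin regulator Eps8l3 had 92 counts in serum vesicles and 0 in vacuolated cells, at least 34.3-fold higher, Eps8l2 rose 7.27-fold and the bundler Pls1 2.95-fold. Podxl, an apical sialomucin that lines lumens, rose 1.698-fold from an already high level (484 ± 60.2 CPM in serum vesicles, against 285 ± 43.3 CPM in vacuolated cells). In the transport list 17 of 24 were higher and 3 lower (median 1.91). Slc9a3, the apical sodium-proton exchanger NHE3, had 117, 103 and 102 CPM in serum vesicles, against 0, 0 and 0.137 CPM in vacuolated cells, with 1949 counts in serum vesicles and 1 in vacuolated cells, a ratio of 2180 (95% counting interval 391 to 86200). That 1 count lay in vacuolated replicate 3, without which the fitted log2 fold change was 12.600 against 10.65 with it. The water channel Aqp8 rose 11.7-fold (122, 175 and 73.5 CPM in serum vesicles, against 7.99, 8.796 and 14.8 CPM in vacuolated cells) and the carbonic anhydrase Car2 10.7-fold. The sodium pump subunit Atp1b1 rose 3.7003-fold. The cotransporter Slc12a2 rose 2.26-fold and the anion exchanger Slc4a2 2.58-fold. The 3 members that fell were Car12 (26.8-fold) and Slc26a6 (2.25-fold), both of bicarbonate handling, and another water channel, Aqp1. Aqp1 had 2 counts in serum vesicles and 25 in vacuolated cells, a ratio of 11.2 towards vacuolated cells (95% counting interval 2.79 to 97.3). This call ended without vesicle replicate 1 or 2 (adjusted p = 0.0649 and 0.0636) or vacuolated replicate 2 (adjusted p = 0.0531), and the fitted log2 fold change was -6.24 without vesicle replicate 3 against -3.28.

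Basement membrane genes split by subunit. Of 18 tested, 4 were higher and 9 lower (median -0.51). Lama5 and Lamb2, chains of mature epithelial laminins, rose 2.13-fold and 2.36-fold. The chains Lama1 (1033, 683 and 1012 CPM in serum vesicles, against 1440.1, 1228 and 1693 CPM in vacuolated cells) and Lamb1 fell as given above, although the call of Lama1 ended when libraries were scaled by total counts alone (adjusted p = 0.0524), and the collagen gene Col4a2 1.62-fold. Nid2, which links laminin to collagen, fell 6.199-fold, P3h2, a prolyl hydroxylase of type IV collagen, 4.81-fold and Pxdn, which crosslinks it, 2.17-fold. Among laminin receptors, the integrin subunits Itga3 and Itgb4 were 5.72-fold and 8.84-fold higher, while Itga2 fell 4.75-fold and Itga6 1.698-fold. Itgb4 had a log2 fold change of 2.49 without vesicle replicate 3 and 1.25 on unstranded counts, against 3.14. In all, 7 of 18 integrin and focal adhesion genes were higher and 4 lower, a called share of 61.1% against 58.0%. Of 13 tested mesenchymal and contractile genes 3 were higher and 2 lower, a called share of 38.5% against 58.0%. The tropomyosin Tpm1 rose 2.16-fold (201 ± 18.6 CPM in serum vesicles, against 92.8 ± 17.1 CPM in vacuolated cells), the adaptor Tgfb1i1 2.04-fold and the collagen gene Col3a1 4.21-fold (0.761, 3.896 and 1.61 CPM in serum vesicles, against 0.561, 0.517 and 0.41001 CPM in vacuolated cells). The call of Col3a1 ended without vesicle replicate 2 (log2 fold change 1.17 against 2.08, adjusted p = 0.298), without any 1 vacuolated library (adjusted p = 0.0675 to 0.0917), with passage as a covariate and in DESeq2 (adjusted p = 0.0519 and 0.0576). That of Tgfb1i1 ended without vesicle replicate 1 or vacuolated replicate 1 (adjusted p = 0.0735 and 0.0953). Vim (4.26, 5.01 and 3.23 CPM in serum vesicles, against 39.3, 44.7 and 58.9 CPM in vacuolated cells) and the calponin Cnn1 (9.197-fold lower) fell. The N-cadherin gene Cdh2 had 5 counts in serum vesicles and 18 in vacuolated cells and was too low to be tested.

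Wnt response genes were higher in serum vesicles than in vacuolated cells, which were themselves grown with CHIR99021. Of 16 tested, 10 were higher and 2 lower (median 2.31). Lgr5, a receptor for R-spondins, had 37.1, 47.9 and 42.2 CPM in serum vesicles, against 7.57, 7.07 and 5.47 CPM in vacuolated cells, 6.33-fold higher (adjusted p = 3.55e-09), and 0 in each normal library. Axin2, a feedback inhibitor of the pathway, had 12.9, 9.74 and 28.4 CPM in serum vesicles, against 1.54, 1.72 and 1.64 CPM in vacuolated cells, 10.2-fold higher, and also 0 in normal cells. The transcription factor Lef1 had 3.35, 2.09 and 3.69 CPM in serum vesicles, against 0, 0 and 0 CPM in vacuolated cells, at least 19.8-fold higher by the same limit of 3 counts. Its relative Tcf7 had 17.04, 17.7 and 13.1 CPM in serum vesicles, against 0.421, 0.6899 and 0.82002 CPM in vacuolated cells, 24.3-fold higher, with a log2 fold change of 3.62 on unstranded counts against 4.604. For these 4 genes no vesicle library overlapped a vacuolated one. The ubiquitin ligase Rnf43, which removes Wnt receptors, rose 20.6-fold, the receptors Fzd5 and Lrp5 13.7-fold and 4.76-fold, and the inhibitor Apcdd1 6.62-fold. Sp5 and Nkd1, too low to be tested, had 16 and 26 counts in serum vesicles and 0 and 1 in vacuolated cells. Myc fell 3.24-fold (4.56, 2.09 and 2.31 CPM in serum vesicles, against 9.39, 12.8 and 7.52 CPM in vacuolated cells), while Ccnd1 (6.24 CPM in serum vesicles and 10.1 CPM in vacuolated cells) and Tnfrsf19 (10.2 CPM in serum vesicles and 12.8 CPM in vacuolated cells) did not pass. Ccnd1 (adjusted p = 0.0648) was called lower without vesicle replicate 2 or 3 (adjusted p = 0.0487 and 0.0337).

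A TCF and LEF core of the letters CTTTGAT, searched on both strands of the 300 bases from 250 before to 50 after each start in RefSeq (GRCr8), lay in 5 of the 18 promoters of this list and in 3.62% of all 27457 promoters. Of the 5 genes, Axin2 and Tcf7 were tested and both were higher, while Nkd1, Sp5 and Cdx1 were too low to be tested. The motif was chosen after the values were seen. Axin2 is shown because it is the feedback gene that rose and holds the core upstream of its start, with the core in capitals.
Axin2 (GRCr8 chr10:94398633-94398692, plus strand): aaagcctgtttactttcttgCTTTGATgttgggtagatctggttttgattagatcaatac

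FGF pathway genes were lower. Of 17 tested, 13 were lower and 2 higher (median -1.25). The ligand Fgf10 had 0, 0.835 and 0 CPM in serum vesicles, against 31.5, 35.5 and 37.9 CPM in vacuolated cells, 101-fold lower, beside 114 to 139 CPM in normal cells. Its 6 vesicle counts all came from replicate 2, and the log2 fold change was -10.99 without that library and -6.04 without vesicle replicate 1, against -6.66. The receptors Fgfr3 and Fgfr2 fell 6.72-fold and 2.34-fold. The factors Etv5 and Etv4 fell 5.36-fold and 5.57-fold, the feedback inhibitors Spry4 and Spred2 4.67-fold and 2.9004-fold, and the phosphatase Dusp4 3.89-fold. Spry4 had 6.85, 4.87 and 5.302 CPM in serum vesicles, against 24.4, 33.6 and 22.1 CPM in vacuolated cells, with no overlap. The 2 members that rose were the decoy receptor Fgfrl1 (3.05-fold) and Il17rd, another feedback inhibitor of the pathway (1.66-fold). The call of Il17rd ended without vesicle replicate 3 (adjusted p = 0.0826) or vacuolated replicate 2 (adjusted p = 0.120).

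BMP genes moved both ways. Bmp4, a ligand, had 20.7, 26.4 and 25.8 CPM in serum vesicles, against 1.402, 1.03 and 0.82002 CPM in vacuolated cells, 22.02-fold higher, and the BMP-binding protein Chrd rose 33.98-fold (13.5, 18.6 and 14.8 CPM in serum vesicles, against 0.1402, 0.517 and 0.683 CPM in vacuolated cells). The receptors Bmpr2 and Bmpr1a rose 2.28-fold and 1.45-fold, and Smad6, an inhibitory Smad that BMP signals induce, 3.16-fold. The call of Bmpr1a ended without vesicle replicate 2 (adjusted p = 0.0719). The BMP targets Id1, Id3 and Id4 fell 2.82-fold, 3.79-fold and 4.31-fold, and Msx2 3.89-fold, whereas Id2 (15.3 CPM in serum vesicles and 9.22 CPM in vacuolated cells) did not pass (adjusted p = 0.0741) and was called higher without vesicle replicate 2 (adjusted p = 0.00876). Over the list, 5 of 17 were higher and 4 lower, a called share under that of all genes. In the Nodal and anterior visceral endoderm list 6 of 13 were higher and 3 lower. Nodal itself (2.104 CPM in serum vesicles and 3.38 CPM in vacuolated cells) did not pass.

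Imprinted and IGF-axis genes moved in both directions around Igf2. Of 18 tested, 7 were higher and 5 lower (median 0.37). Igf2r, which clears Igf2 and carries enzymes to lysosomes, had 124, 37.3 and 112 CPM in serum vesicles, against 17.2, 14.7 and 18.3 CPM in vacuolated cells and rose 5.41-fold (adjusted p = 0.0053). Igfbp2, which binds Igf2 outside the cell, rose 8.09-fold and the adaptor Grb10 10.1-fold. The imprinted growth inhibitors Cdkn1c and Phlda2 fell 4.73-fold and 7.15-fold, and the binding protein Igfbp4 4.703-fold. The RNA-binding proteins Igf2bp1 and Igf2bp3, which bind Igf2 mRNA, fell 2.35-fold and 1.69-fold, and Igf2bp2 rose 1.82-fold.

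Targets of YAP and TEAD had 2 of 19 higher and 8 lower (median -0.08), a called share under that of all genes. Ankrd1, Ajuba and Ctgf fell 4.52-fold, 2.91-fold and 1.804-fold, and the factors Tead2 and Tead4 3.35-fold and 3.09-fold. Yap1 (40.3 ± 4.28 CPM in serum vesicles, against 42.1 ± 7.62 CPM in vacuolated cells) did not pass. Of 17 immediate early genes, 11 were higher and 2 lower (median 0.95). Jun rose 2.82-fold (52.2, 57.9 and 54.2 CPM in serum vesicles, against 21.7, 17.4 and 18.997 CPM in vacuolated cells), Fosl2 5.78-fold and Ier3 4.59-fold. Of 10 retinoid genes, 6 were higher and 2 lower. The retinaldehyde dehydrogenase Aldh1a1 rose 32.6-fold (25.7, 16.1 and 32.5 CPM in serum vesicles, against 0.841, 0.517 and 0.82002 CPM in vacuolated cells), while Cyp26a1, which degrades retinoic acid, fell 1.92-fold.

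Lysosomal transcripts were higher in serum vesicles. Of 38 tested, 28 were higher and 3 lower, with a median log2 fold change of 0.97. The whole list summed to 4014 to 4767 CPM in serum vesicles and 3213 to 3438 CPM in vacuolated cells. In normal cells it summed to 3968 to 4102 CPM, above the vacuolated cells. The protease Ctsb had 382, 285 and 332 CPM in serum vesicles, against 36.5, 42.6 and 46.7 CPM in vacuolated cells, 7.94-fold higher (adjusted p = 8.12e-14), and 13.2 to 18.01 CPM in normal cells. Grn, the precursor of granulins, rose 10.8-fold, the acid glucosidase Gaa 7.42-fold, the galactosidase Glb1 4.61-fold and the mannosidase Man2b1 3.45-fold. Asah1, which splits ceramide, rose 3.45-fold and Psap, a sphingolipid activator, 2.14-fold. Ctsz fell 2.304-fold (433, 319.8 and 259 CPM in serum vesicles, against 710.2, 825 and 797 CPM in vacuolated cells), and the regulator Tfeb fell 2.08-fold, as Tfec did, while their relative Mitf rose 2.304-fold. The membrane protein gene Lamp1 (517 CPM in serum vesicles and 631 CPM in vacuolated cells) did not pass (adjusted p = 0.0516). The proton pump of these organelles did not follow: 3 of 16 V-ATPase genes were higher and 3 lower, a called share of 37.5% against 58.0% of all genes.

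The E-box TCACGTG, the core of the element that MiT/TFE factors bind in lysosomal promoters, was in 8 of the 31 list promoters that RefSeq held and in 3.43% of all. Of those 8 genes, 7 could be tested, and 5 were higher and 0 lower, beside 28 and 3 of the 38 tested in the whole list. Windows of 60 bases upstream of the start of 3 risers are shown, with the match (either strand) in capitals, and the motif was again chosen after the values were seen.
Gaa (GRCr8 chr10:105028268-105028327, plus strand): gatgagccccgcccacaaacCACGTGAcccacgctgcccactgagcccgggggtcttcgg
Glb1 (GRCr8 chr8:122963597-122963656, plus strand): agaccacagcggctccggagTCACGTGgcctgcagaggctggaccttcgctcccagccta
Igf2r (GRCr8 chr1:50526773-50526832, plus strand): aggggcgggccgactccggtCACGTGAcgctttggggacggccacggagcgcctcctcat

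Of 23 autophagy genes, 13 were higher and 2 lower (median 0.47), among them the initiating kinase Ulk1 (4.77-fold), its partner Atg13 (2.82-fold) and the receptor Sqstm1 (1.53-fold). Atg5 and Atg16l1, parts of the conjugating complex, fell 1.87-fold and 1.77-fold. Endocytosis and vacuole trafficking genes were split, with 12 of 34 higher and 11 lower. Cav1, the coat protein of caveolae, had 54.8, 19.6 and 23.3 CPM in serum vesicles, against 0.421, 0 and 0.273 CPM in vacuolated cells, 124-fold higher, with log2 fold changes of 6.34 without vesicle replicate 1 and 7.59 without vacuolated replicate 1 against 6.96. Rab11a, a GTPase of recycling endosomes, rose 2.04-fold. The lipid kinase Pikfyve (111 ± 1.91 CPM in serum vesicles, against 108 ± 3.25 CPM in vacuolated cells), known to limit endosome size, did not pass, and Rab20 and Rab31 fell 2.08-fold and 2.28-fold.

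Fatty acid oxidation genes were higher in serum vesicles. Of 23 tested oxidation genes, 17 were higher and 0 lower, with a median of 1.02. Ppargc1a, a coactivator of mitochondrial genes, had 13.996, 8.21 and 14.3 CPM in serum vesicles, against 0, 0 and 0 CPM in vacuolated cells, at least 79.4-fold higher by the same limit of 3 counts. Cpt1a, which admits fatty acids to mitochondria, rose 5.23-fold (21.5, 16.98 and 28.4 CPM in serum vesicles, against 3.79, 3.28 and 5.47 CPM in vacuolated cells), Hadhb 3.73-fold and Eci1 13.7-fold. In fatty acid synthesis, 1 of 21 were higher and 9 lower. The desaturase Scd fell 6.27-fold (13.7, 18.4 and 7.38 CPM in serum vesicles, against 73.6, 94.5 and 87.2 CPM in vacuolated cells) and the carboxylase Acaca 1.86-fold, but Fasn (400.4 CPM in serum vesicles and 388 CPM in vacuolated cells) did not pass. Cholesterol genes had 12 of 29 higher and 5 lower, a called share close to that of all genes. The isoprenoid enzyme Fdps fell 1.82-fold.

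The hypoxia and glycolysis list was split, with 11 of 34 higher and 13 lower (median -0.32), beside 30.3% and 27.6% of all genes. The members that fell included glycolytic enzymes: Ldha had 489, 466 and 260.5 CPM in serum vesicles, against 1355, 1359.95 and 1362 CPM in vacuolated cells (3.35-fold lower), Pkm fell 2.17-fold, Pgk1 2.08-fold and Gapdh 1.796-fold. The lactate exporter Slc16a3 fell 3.35-fold and the collagen prolyl hydroxylase P4ha1 3.904-fold. On the other side, the glucose transporter Slc2a1 rose 3.898-fold (103, 59.3 and 137 CPM in serum vesicles, against 25.7, 22.6 and 27.7 CPM in vacuolated cells), the angiogenic factor Vegfa 4.24-fold, Ndrg1 5.59-fold and Aldoa 2.21-fold. Of the mitochondrially encoded genes 12 of 13 were higher and 0 lower (median 1.46), with Mt-nd2, a subunit of complex I, 4.09-fold higher (3381, 3239 and 4290.5 CPM in serum vesicles, against 1033, 1001 and 631 CPM in vacuolated cells). This moved with the share of counts in Mt- genes given above, and between 10 and 12 of the 13 were higher with any 1 library left out. Nuclear genes of the same complexes did not rise as a group: 11 of 58 were higher and 19 lower (median -0.24). Among them Uqcrb rose 4.91-fold and Uqcrh fell 2.08-fold.

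**Figure D3:**
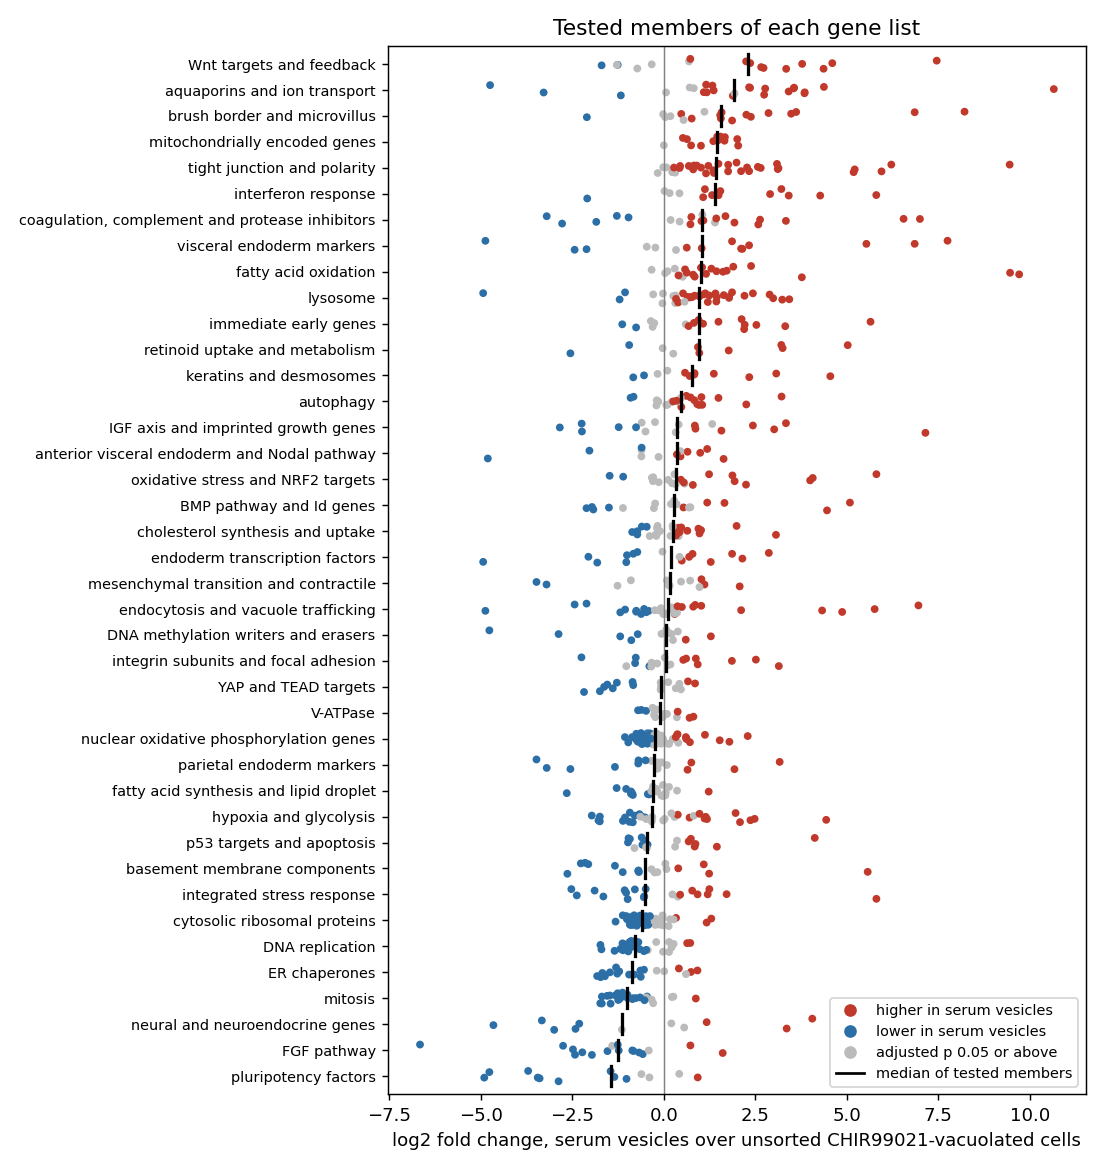
Log2 fold change of each tested member of the gene lists with at least 10 tested members, serum vesicles over unsorted CHIR99021-vacuolated cells, ordered by median. Points are red where higher and blue where lower at an adjusted p under 0.05 and grey otherwise, and the black bar is the median; the Wnt and transport lists lie at the top and pluripotency and FGF lists at the bottom.

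Chaperones of the endoplasmic reticulum, which fold secreted proteins, were lower in serum vesicles. Of 20 tested, 14 were lower and 3 higher, with a median log2 fold change of -0.88. Hspa5, the master chaperone BiP, had 462, 368 and 292 CPM in serum vesicles, against 1134, 1221 and 1121 CPM in vacuolated cells, 3.09-fold lower (adjusted p = 1.04e-09). All 3 vesicle libraries lay far below the vacuolated ones, and normal cells held 1331 to 1382 CPM. Hyou1, which recharges BiP, fell 3.04-fold, its cofactors Dnajb11 and Sdf2l1 3.301-fold and 3.53-fold, the disulphide isomerase Pdia4 3.199-fold, the lectin Canx 2.46-fold and the secreted factor Manf 2.77-fold. The 3 members that rose, of degradation and stress sensing, were Sel1l (1.68-fold), Syvn1 (1.89-fold) and the stress factor Xbp1 (1.33-fold), whose call ended without vacuolated replicate 2 (adjusted p = 0.0565). The call of Syvn1 rested on the strand: on unstranded counts its log2 fold change was -0.12 (adjusted p = 0.435), against 0.92.

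The endoplasmic reticulum stress element ERSE, the letters CCAAT and CCACG with 9 free bases between them, was searched on both strands because these genes fell together, and the choice was made after their values were seen. It lay in 7 of the 17 list promoters that RefSeq held and in 21 of 27457 promoters in all, or 0.0765%. Of the 7 genes that carry it, 6 were lower and 1, Xbp1, was higher. The 60-base windows below, all upstream of the start, have the fixed bases of the element in capitals, on whichever strand it lies.
Hspa5 (GRCr8 chr3:38452953-38453012, plus strand): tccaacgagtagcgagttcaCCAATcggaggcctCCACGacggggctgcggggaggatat
Hsp90b1 (GRCr8 chr7:23012326-23012385, minus strand): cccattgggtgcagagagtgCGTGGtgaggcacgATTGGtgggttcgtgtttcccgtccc
Calr (GRCr8 chr19:40213117-40213176, plus strand): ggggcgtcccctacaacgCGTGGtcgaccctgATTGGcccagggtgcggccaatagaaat
Canx (GRCr8 chr10:35158048-35158107, minus strand): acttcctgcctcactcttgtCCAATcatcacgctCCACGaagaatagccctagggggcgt
Dnajc3 (GRCr8 chr15:102432514-102432573, plus strand): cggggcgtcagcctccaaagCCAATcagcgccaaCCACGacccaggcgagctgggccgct
Creld2 (GRCr8 chr7:121789219-121789278, plus strand): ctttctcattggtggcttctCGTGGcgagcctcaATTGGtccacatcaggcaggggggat
Xbp1 (GRCr8 chr14:84604538-84604597, plus strand): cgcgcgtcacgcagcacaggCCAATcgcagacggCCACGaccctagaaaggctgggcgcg
The log2 fold changes of these genes, in that order, were -1.63, -1.21, -0.64, -1.302, -0.95, -1.27 and 0.41.

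Serine and one-carbon enzymes led the falls among integrated stress response genes. Of 20 tested, 7 were higher and 11 lower (median -0.51). Phgdh, which starts serine synthesis, had 37.9, 32.4 and 24.4 CPM in serum vesicles, against 152, 164 and 179 CPM in vacuolated cells (5.18-fold lower), and the mitochondrial enzymes Shmt2 and Mthfd2 fell 5.75-fold and 3.13-fold. The amino acid transporters Slc7a5 and Slc7a1 fell 3.6998-fold and 2.04-fold, and the factor Atf4 1.46-fold. Another amino acid transporter, the cystine carrier Slc7a11, had 16 counts in serum vesicles and 0 in vacuolated cells, at least 5.97-fold higher. Atf5 and Cebpb, transcription factors of the same response, rose 2.299-fold and 2.37-fold. Among oxidative stress genes 10 of 23 were higher and 2 lower. The glutathione transferase Gstp1 had 176, 111 and 159.8 CPM in serum vesicles, against 7.71, 10.003 and 10.3 CPM in vacuolated cells (15.99-fold higher), the quinone reductase Nqo1 rose 3.83-fold and Cat, which breaks down hydrogen peroxide, 3.67-fold, while Prdx1 fell 2.78-fold. Targets of p53 had 6 of 18 higher and 7 lower, with the BH3-only gene Bmf 17.5-fold higher and Phlda3 and Ccng1 1.97-fold and 1.95-fold lower.

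Genes of interferon signalling were higher more often than lower, as were those of a mixed list of coagulation, complement and protease genes. In the interferon list 10 of 14 were higher and 1 lower (median 1.41), and the whole list summed to 158 to 180.3 CPM in serum vesicles and 86.2 to 90.6 CPM in vacuolated cells. The factors Stat2 and Irf1 rose 2.92-fold and 2.498-fold, and the antiviral GTPase Mx2 10.7-fold (12.3, 15.2 and 14.3 CPM in serum vesicles, against 1.402, 1.55 and 0.957 CPM in vacuolated cells). In the coagulation, complement and protease list 12 of 21 were higher and 5 lower, while its summed CPM was 1184 to 1284 in serum vesicles and 2349 to 2544 in vacuolated cells. The membrane protease Mmp15 rose 10.1-fold (59.8, 65.8 and 88.1 CPM in serum vesicles, against 7.43, 6.73 and 6.83 CPM in vacuolated cells) and the metalloprotease inhibitor Timp3 5.99-fold. Of the coagulation genes named here, the tissue factor gene F3 fell 2.43-fold and the thrombomodulin gene Thbd fell as given above. Timp2 fell 1.95-fold, and the collagen chaperone Serpinh1, given above, was another member that fell.

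Cell-cycle genes were lower in serum vesicles. For DNA replication, 20 of 29 were lower and 2 higher (median -0.78), and for mitosis 20 of 26 were lower and 1 higher (median -0.99). Ccna2, the cyclin of S phase and G2, had 53.6, 71.5 and 45.9 CPM in serum vesicles, against 202, 191 and 179 CPM in vacuolated cells (3.32-fold lower), and the mitotic cyclin Ccnb1 fell 2.92-fold. The checkpoint kinases Bub1 and Ttk fell 3.22-fold and 3.23-fold, and Cdc20, which starts anaphase, 2.49-fold. At the entry to S phase the cyclin Ccne1 fell 3.32-fold, the licensing factor Cdc6 3.25-fold, the helicase subunit Mcm5 2.27-fold and the nucleotide reductase Rrm1 2.54-fold. Mcm6 and Pola1 rose 1.56-fold and 1.65-fold, and Cenpf 1.84-fold. The proliferation marker Mki67 (77.5 ± 25.8 CPM in serum vesicles, against 94.01 ± 2.24 CPM in vacuolated cells) and Top2a (147 CPM in serum vesicles and 122 CPM in vacuolated cells) did not pass. Without vesicle replicate 3 Mki67 was called lower, with a log2 fold change of -0.59 (adjusted p = 0.0108) against -0.29 with it.

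**Figure D4:**
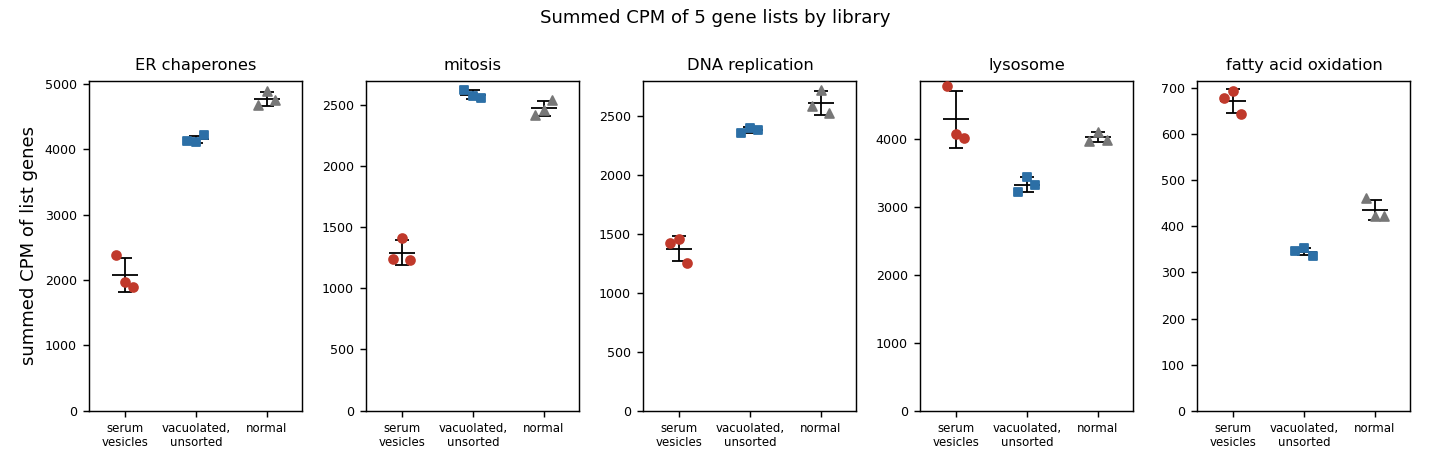
Summed CPM of all genes of 5 lists in each library, with serum vesicles (circles), unsorted CHIR99021-vacuolated cells (squares) and, for scale, normal cells (triangles); bars give the mean and SD of 3 libraries. The vesicle libraries sit below the vacuolated ones for ER chaperones, mitosis and DNA replication and above them for fatty acid oxidation.

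Cytosolic ribosomal protein genes were lower for 45 of 62 and higher for 3, with a median log2 fold change of -0.59. Rps2 had 763, 694 and 581 CPM in serum vesicles, against 1447, 1456 and 1526 CPM in vacuolated cells (2.17-fold lower) and Rps20 fell 2.49-fold, whereas Rps28 rose 2.25-fold. Many ribosomal protein genes have near-identical processed copies in the genome that share reads with them, so single members are uncertain. The list's median lay between -0.67 and -0.51 in every fit tried, including those with other library scalings.

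Few genes of other cell types could be tested. Of the trophoblast list 3 of 14 genes in the files could be tested, of which 2 were higher and 1 lower. Beside Cdx2, the surface protein gene Plet1 was higher, with 27 counts in serum vesicles and 3 in vacuolated cells, a ratio of 10.1 (95% counting interval 3.10 to 51.9). This call ended without vesicle replicate 1 (adjusted p = 0.051). The T-box gene Eomes fell 4.16-fold (0.854 CPM in serum vesicles and 3.33 CPM in vacuolated cells). The list summed to 22.8 to 36.5 CPM in serum vesicles and 3.97 to 5.75 CPM in vacuolated cells, with Hand1 at 0. Of the epiblast, streak and mesoderm list 2 of 16 could be tested, and the angiopoietin receptor Tek fell 2.83-fold (14.3, 11.97 and 19.8 CPM in serum vesicles, against 37.7, 49.5 and 41.4 CPM in vacuolated cells). That list summed to 15.4 to 24.9 CPM in serum vesicles and 39.8 to 51.9 CPM in vacuolated cells. The neural list summed to 119 to 123 CPM in serum vesicles and 191 to 205 CPM in vacuolated cells and had 3 of 11 higher and 5 lower. There Stmn2, Tubb3 (10.1-fold) and Ngfr (4.95-fold) fell, while the microtubule protein Dcx rose 16.7-fold (31.04, 24.6 and 18.2 CPM in serum vesicles, against 1.96, 0.862 and 1.503 CPM in vacuolated cells) and the deubiquitinase Uchl1 10.3-fold. Without vesicle replicate 1 the log2 fold change of Tubb3 was -3.98 against -3.33, and without vacuolated replicate 2 that of Uchl1 was 4.002 against 3.36. What part such cells play in the results was not tested.

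A second vesicle and vacuole pair, which shares no library with the first, was set beside it. It compared serum-free vesicles with sorted CHIR99021-vacuolated cells, so it also differs in serum and in the sort. Its passages were 32, 35 and 42 for serum-free vesicles and 35, 38 and 49 for sorted cells. Replicates 1 and 2 of both vesicle groups thus have the same passages. Sorted replicates 1 and 3 have those of serum vesicle replicates 2 and 3. The labels do not say whether libraries of the same passage came from the same cultures. The tests below take all libraries as independent. There 5707 genes, or 49.6%, passed, and 3811 genes, or 33.1% of those tested, were called in both pairs with the same sign, which is 57.2% of the calls of the first pair and 66.8% of those of the second. Another 222 were called in both with opposite signs. The test of the difference between the pairs called 2679 genes, or 23.3%, with 2531 when the replicate number was a block and 2633 with passage as a covariate. In the second pair 25.1% of all tested genes were higher and 24.5% lower. There, of 34 junction genes 26 were higher and 0 lower, and FGF genes were lower for 11 of 17. Igf2, Cldn4, Cdx2 and Pou5f1 had log2 differences of 6.55, 5.903, 7.57 and -5.47 in the second pair, and their difference between pairs did not pass (adjusted p = 0.732, 0.725, 0.940 and 0.485).

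Ribosomal protein genes parted the 2 pairs. In the second pair 43 of 62 were higher and 0 lower, beside 25.1% and 24.5% of all genes, with a median log2 difference of 0.48. The difference between pairs passed for 53 of 62, beside 23.3% of all genes. Mitochondrially encoded genes differed between the pairs for 11 of 13. Their share of counts was 7.11 to 9.43% in serum-free vesicles and 6.76 to 8.91% in sorted cells, close to that of serum vesicles and above that of unsorted cells. Basement membrane genes differed for 12 of 18 and were lower for 15 in the second pair, beside 24.5% of all genes. The claudin gene Cldn7 rose in both pairs but by less in the second, with a log2 difference of 2.496 there against 5.22 in the first (adjusted p of the difference 4.14e-05).

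**Figure D5:**
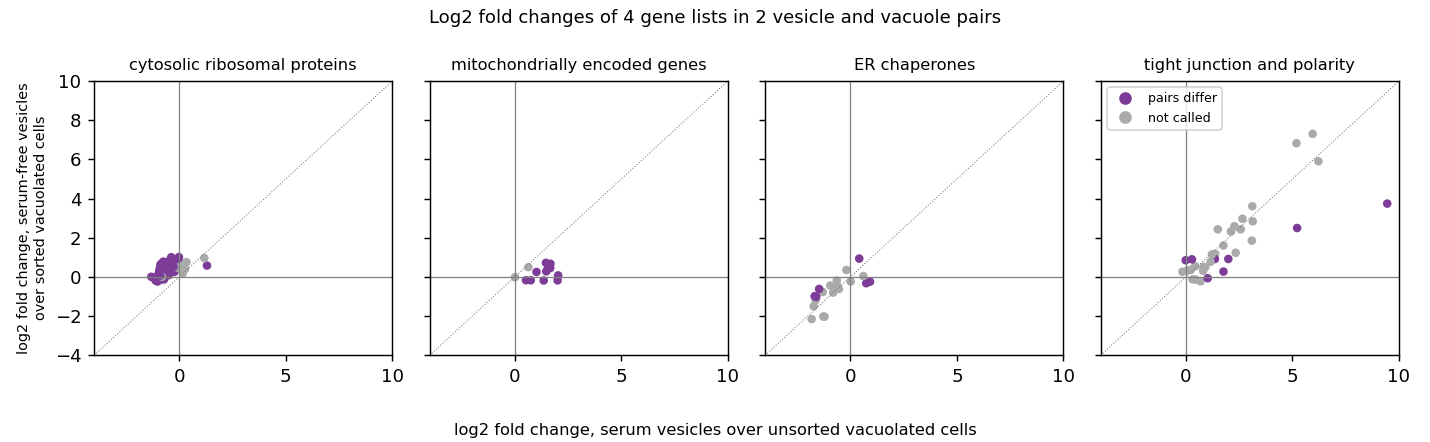
Log2 fold change of each tested member of 4 lists in serum vesicles over unsorted vacuolated cells (x axis) and in serum-free vesicles over sorted vacuolated cells (y axis), purple where the pairs differ at an adjusted p under 0.05; the dotted line marks equal values. Ribosomal protein genes lie mostly left of 0 on the x axis and above 0 on the y axis, with medians of -0.59 and 0.48, whereas junction genes lie above 0 or near it on both.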

How the data were processed

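Total RNA of 18 rat libraries in 6 groups of 3 was sequenced from a strand-specific kit after ribosomal RNA removal, per the labels' protocols. The submitters' processing notes name bcl2fastq, Trimmomatic 0.38, STAR 2.6.1 and the build rn6, with no role or order. The authors deposited raw read counts per gene, unstranded and for each strand. Column 4 was used as the sense strand, because the other strand held 1.70 to 2.85% of the stranded counts. Every row names a gene. Libraries were grouped by title.

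All 18 libraries were fitted together with edgeR 4.0.16 (quasi-likelihood test, robust, 1 mean per group, TMM scaling, R 4.3.3), after filterByExpr with a minimum count of 10 left 11503 of 28695 genes. P-values were adjusted by Benjamini-Hochberg over those genes with a threshold of 0.05. CPM used TMM-scaled library sizes. Folds are edgeR's fitted ones. Where a group had 0 counts 3 counts were taken as that group's upper limit and the fold is a lower bound, and for 1 to 3 counts a ratio with an exact 95% counting interval is given. The difference between the vesicle and vacuole pairs was tested as an interaction in the same fit.

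The members and the 44 gene lists were chosen with earlier results of these data known. Named genes were the 12 highest and 12 lowest folds among called genes whose mean log2 CPM was 3 or more and whose groups did not overlap, the 5 widest gains and losses in CPM, up to 4 called list members by smallest adjusted p in the direction with more calls and up to 2 in the other, a fixed set of endoderm and junction genes, and other list members as examples beside their list's count. Some genes that this rule picked are not reported here. Motifs were searched in RefSeq promoters of GRCr8, which is not the build of the counts.

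On data simulated for serum vesicles over unsorted CHIR99021-vacuolated cells with 11180 genes, the test called 38% of true 1.5-fold changes, 88% at 2-fold and 100% at 4-fold, and 5 of 10980 unchanged genes. Only 50 genes above a minimum CPM were changed at each fold, whereas 58.0% of genes were called in the data. The simulated spread followed the trend over genes, not each gene's own spread. These rates may therefore not hold for the data. Alternatives were another filter, scaling by RLE or total counts, unstranded counts, the 2 groups alone, DESeq2 1.42.0, a replicate block, passage as a covariate, thinning to equal counts outside the 2 dominating genes, a test against a 1.5-fold change and leaving out each library. The interaction without single libraries of the first pair was chosen after seeing the data.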

Additional observations from a re-analysis of the deposited data

Results flagged for a closer look

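Of 269 genes named in the text and tested, 106 had a difference between the vesicle and vacuole pairs that passed edgeR's quasi-likelihood test of that difference, beside 2679 of all 11503 tested genes (23.3%). Most of these genes were named for their change in the first pair, so nothing is read from their higher share. Of the 106, 7 were called in both pairs with opposite signs. Among all 11503 tested genes, whether or not their difference between pairs passed, 222 were, so these counts have unlike bases and are not compared. The pairs differ in serum and in the sort as well as in the libraries, and what part these play was not tested. Each value below is the log2 fold change of serum vesicles over unsorted vacuolated cells minus that of serum-free vesicles over sorted vacuolated cells. Genes higher in the first pair and lower in the second were the MiT/TFE factor Mitf (2.503, adjusted p = 0.000215), the AP-1 subunit Jun (2.47, adjusted p = 1.59e-06), the laminin chain Lama5 (2.20, adjusted p = 0.000538) and the Krüppel-like factor Klf4 (1.66, adjusted p = 2.88e-05). Genes lower in the first pair and higher in the second were the BMP target Id3 (-3.33, adjusted p = 0.000132), the ribonuclease P RNA Rpph1 (-1.43, adjusted p = 0.00251) and the isoprenoid enzyme Fdps (-1.12, adjusted p = 1.91e-05).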

How the results depend on the processing

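The counts of 6666 differing, 3489 higher and 3177 lower genes stayed within 1.5 times under every alternative but the test against a 1.5-fold change, where 3756 differed, 2116 higher and 1640 lower; that test asks for a wider change by construction. Leaving out 1 library at a time gave 6004 to 6598 differing genes, 3087 to 3417 higher and 2917 to 3181 lower, 4905 to 5467 for serum-free vesicles over sorted vacuolated cells, and 1931 to 3063 for the difference between pairs. Same-numbered libraries had correlations of their deviations of -0.038, 0.041 and 0.095, and other library pairs -0.093 to 0.051. With 3 libraries a group, these values cannot decide whether the replicate numbers pair the samples. The replicate block gave 6574 genes over 18 libraries and 6271 over the 6 alone. Leaving out the 2 dominating genes and the Mt- genes moved the median of all genes to 0.09, against 0.05. Of 252 named genes that were called, 36 lost the call or the sign under some setting, and 12 did so outside the test against a 1.5-fold change. Syvn1 changed sign on unstranded counts (-0.12), and the cause was not tested. Of the named genes that did not pass, 5 did under other settings: Ccnd1 with no filter, with the replicate block on 2 groups (adjusted p = 0.0196 and 0.0245) or without vesicle replicate 2 or 3; Id2 with no filter, that block, thinning or without vesicle replicate 2 (0.00592 to 0.0461); Cldn12 without the dominating and Mt- genes or vesicle replicate 2 (0.035 and 0.0257); Lamp1 with no filter, unstranded counts, the 2 groups alone, that block or DESeq2 (0.0365 to 0.04998); and Mki67 without vesicle replicate 3 (0.0108). Another 4 changed sign near 0. Yap1 had 0.0624 when thinned. With 1 library left out, log2 fold changes ran from -0.2175 to 0.0299 for Yap1, -0.1831 to 0.0457 for Pdgfra, -0.4161 to 0.0646 for Krt19 and -0.0908 to 0.2262 for Fasn. At these depths and 3 libraries a group, 38% of simulated 1.5-fold changes in genes above a minimum CPM were called, and no other depth was simulated.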
